A study of Mus musculus with 15 samples.

Results

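The collagen genes of mouse skeletal muscle were 44 genes of the 55536 in the deposited tables, taken as every gene whose name is Col, a type number, the letter a and a chain number. They comprised 11 genes of fibrillar types, 6 of the basement membrane type IV and 27 of other types. The other types comprised 10 genes of beaded filaments and networks, 9 FACIT genes (collagens that sit on the surface of fibrils), 4 transmembrane genes, 2 multiplexin genes, 1 anchoring fibril gene and Col26a1. All 44 were protein-coding in GENCODE release M21 on GRCm38. Muscle poly(A) RNA of 15 male mice aged 2 months had been sequenced as strand-preserving libraries. There were 5 wild-type controls, 5 mice labelled PdgfrB Knock Out, in which the receptor gene was deleted in cells that express myogenin, and 5 mice labelled PdgfrB D489V, which carried a constitutively active receptor allele in the same cells. The labels name no muscle, strain, litter or batch. Sample names of all 3 groups, controls included, begin with Myo or MYOG, and the labels do not say whether the controls, whose genotype is given as wild type, carried a driver. The question was how loss and activation of this receptor for platelet-derived growth factor altered muscle RNA.

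Collagens are secreted as procollagen chains that are hydroxylated and wound into a helix of chains inside the cell, trimmed outside it and cross-linked into fibrils, nets or filaments. In muscle, most collagen is made by fibroblast-like interstitial cells and tendon cells, while type IV collagen also comes from endothelial cells, mural cells and muscle fibres. Platelet-derived growth factor receptors are carried chiefly by interstitial and mural cells and are known for driving fibroblast growth and matrix production. In bulk RNA, fewer cells of a type and less RNA per cell cannot be told apart.

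The deposited values were normalized counts, which summed to 29815559 to 36489777 per sample with 20799 to 23783 genes above 0, and replicates of a group were treated as separate mice, although the labels do not say so. Muscle fibre markers (Acta1, Ckm, Myh4, Myh1 and Myh2) summed to 3948008 to 5555556 and were present in every sample. Pdgfrb itself read 1673 to 1848 in controls, 958 to 1628 in knockouts and 820 to 1062 in D489V samples. It was lowest in the D489V group, not in the knockouts: against control it fell by 0.96 on the log2 scale in D489V (SE 0.0897, limma adjusted p 0.00168) and was at -0.45 in knockout (SE 0.13, limma adjusted p 0.294), and knockouts stood 0.51 above D489V samples (SE 0.14, limma adjusted p 0.0258). The targeted gene was thus higher in the group labelled knockout than in the group labelled D489V, and every difference between these groups takes the labels as given. The library labelled knockout 3 stood apart and went against its labelled sex: it held 3165 normalized counts of Xist, against 101 or fewer in the other 14 samples, and 367 of the Y-linked Ddx3y, against 1437 to 3887. It was also the lowest of the 15 samples in 23 of 42 collagen genes, so the main collagen differences that rest on it are given with and without it.

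Collagen RNA made up 0.636% to 0.861% of all normalized counts in controls, with a mean of 0.772%. The share was 0.268% to 0.986% in knockouts, whose mean was 0.687%, and 0.420% to 0.695% in D489V samples, whose mean was 0.566%. The knockouts spanned the whole range of the series, with knockout 3 at its lower end and knockout 2 at its upper end. The D489V samples lay below the middle of the controls' range, and the groups overlapped.

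Counts per kilobase of transcript allow levels to be set beside each other, and on that scale type I and type III chains led. Col1a2 stood at 9214, Col1a1 at 8696 and Col3a1 at 6282 per kb as means over the 15 samples, which were 24.3%, 23% and 16.6% of the collagen total. Col4a1 and Col4a2 followed at 3114 and 2040 per kb, then Col6a2 and Col6a1 at 1581 and 1448 per kb. Fibrillar genes held 71.0% ± 1.37 of the collagen total per kb in controls, 71.7% ± 6.1 in knockouts and 67.6% ± 2.06 in D489V samples (SD, n = 5 each). Type IV genes held 14.1% ± 0.739, 12.8% ± 2.48 and 15.9% ± 1.41 in the same order, and the other types 14.9% ± 0.763, 15.5% ± 3.66 and 16.6% ± 1.1. At the bottom of the order, Col10a1, the network collagen of hypertrophic cartilage, had at most 3 normalized counts in any sample. Col6a4, an alternative chain of type VI collagen, had 0 to 56, and neither gene was tested.

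**Figure D1:**
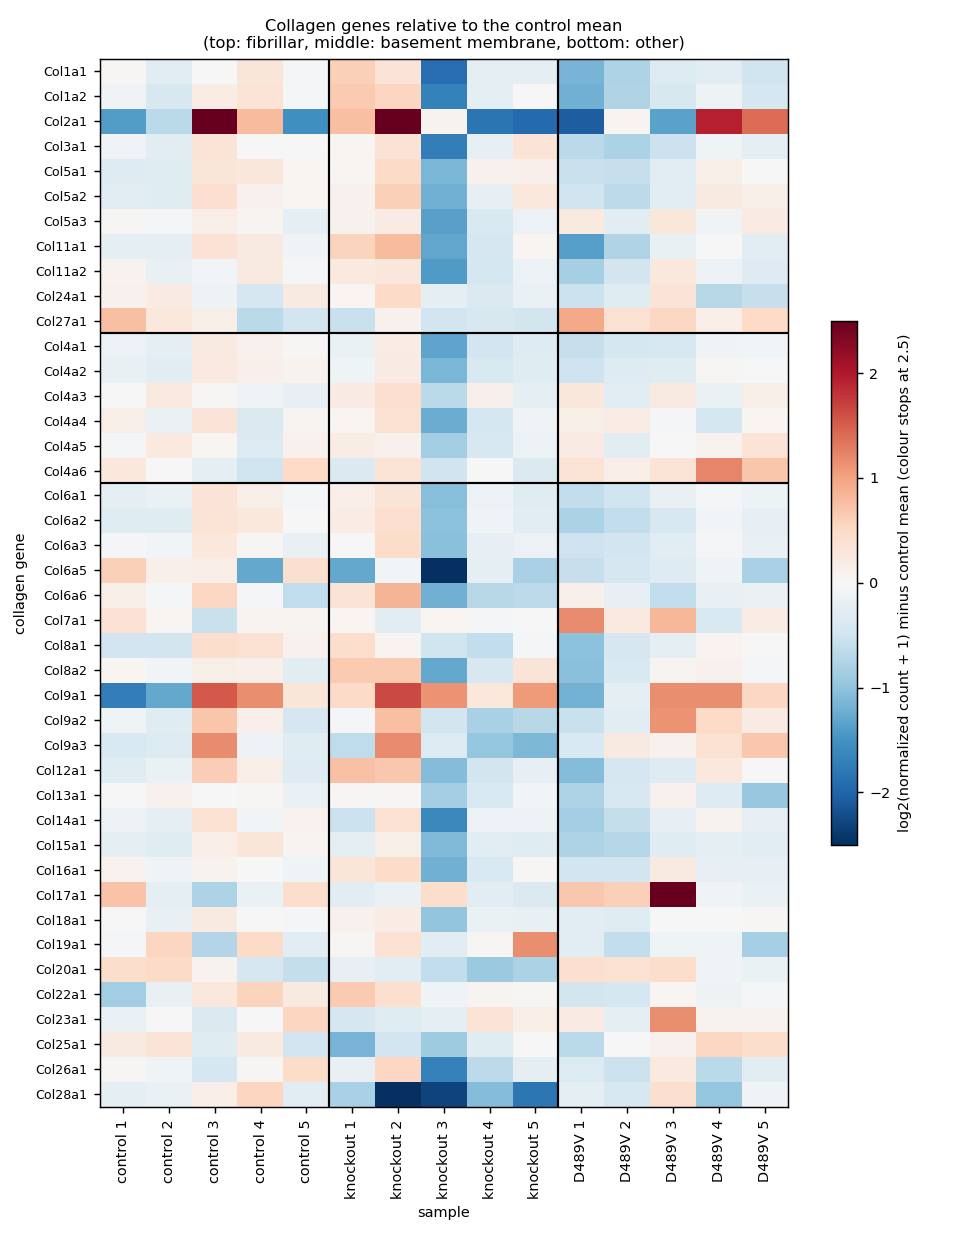
Levels of 42 collagen genes (rows) in each of the 15 samples (columns), as log2(normalized count + 1) minus the control mean, with blue for lower and red for higher; rows are ordered as fibrillar, basement membrane and other types, and Col6a4 and Col10a1 are left out as too low. Knockout 3 is blue in most rows, D489V 1 is blue in the type I, III and XI rows, and Col28a1 is blue in every knockout sample.

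In knockout against control, 0 of the 41 collagen genes tested passed an adjusted p of 0.05 with limma, a linear model fitted to log2(value + 1) across all 15234 genes, of which 0.00656% (1 gene) passed. Col28a1 came nearest, with an adjusted p of 0.2. At an unadjusted p under 0.05 there were 2 collagen genes, Col28a1 and Col20a1, both lower in knockouts, which is 4.88% against 15.1% of all genes in either direction and 7.42% lower. Groups did not overlap for 1 collagen gene, Col28a1, against 2.24% of all genes, or 1.25% with knockouts lower. The log2 difference was below 0 for 38 of 41 collagen genes and for 48.5% of all genes, with a collagen median of -0.21 and an all-gene median of 0.01. That balance came with knockout 3: without it 24 of 41 were below 0, beside 47.9% of all genes, and the collagen median was -0.03. The count at an unadjusted p under 0.05 was 8 without knockout 2 (19.5%, beside 15.2% of all genes) and 4 without control 4 (9.76%, beside 22%). It was 1 (2.44%) without control 1, control 2, knockout 3 or knockout 5, beside 8.32%, 8.45%, 10.6% and 11% of all genes.

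In D489V against control, 0 of 42 tested collagen genes passed, against 0.0587% (9 genes) of 15339 tested with limma. At an unadjusted p under 0.05 there were 8 collagen genes, all lower in D489V samples: Col1a1, Col1a2, Col3a1, Col4a1, Col6a2, Col6a3, Col13a1 and Col15a1. This was 19% of the collagen genes tested, against 4.06% of all genes for lower values and 9.43% for either direction. With all 15 samples in one fit the count was 3 (2 lower and 1 higher), or 7.14% against 9.67% of all genes, so the excess over the background was not seen there. Without D489V 1, 2 and 4 in turn the count was 4, 5 and 13. These were 9.52%, 11.9% and 31% of the collagen genes, beside 6.53%, 7.02% and 10.1% of all genes. Groups overlapped for all 42, while 2.16% of all genes had groups that did not overlap. The log2 difference was below 0 for 28 of 42 collagen genes and for 49.6% of all genes, with medians of -0.24 and 0.00. The medians were -0.30 over 11 fibrillar, 0.01 over 6 type IV and -0.26 over 25 other genes. Tendon markers summed to 11983 to 19770 in controls and 10503 to 17708 in D489V samples, and markers of fibro-adipogenic cells, the collagen-making interstitial cells, to 23260 to 29557 and 27851 to 32935. Most of the second sum was Gsn, without which it was 4975 to 7052 in controls and 4457 to 7229 in D489V samples, and 3 of its 6 genes were above 0 and 3 below. Adipocyte markers (Adipoq, Plin1, Cidec and Lep) summed to 589 to 7782 in controls and 3591 to 13415 in D489V samples, with 4 of 4 above 0, a median log2 difference of 1.67, and 0 passing with limma but 2 at an unadjusted p under 0.05. The part of these cells in the collagen values was not tested. Both mutant groups were compared with the same 5 controls, so their differences from control are not independent of each other.

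**Figure D2:**
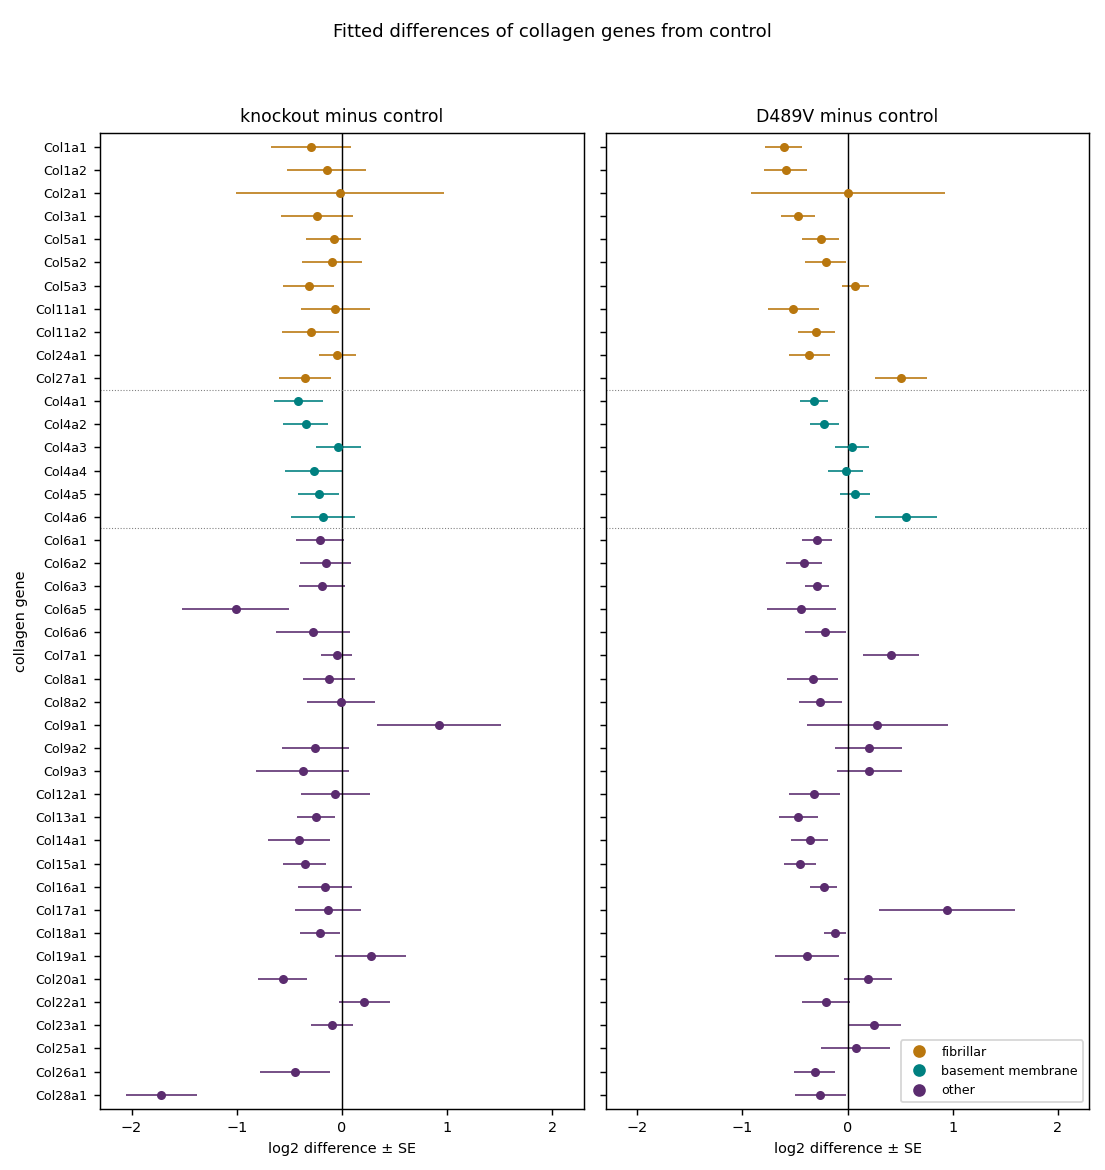
Fitted log2 difference from control (x axis, points, with bars of 1 SE) for each tested collagen gene (y axis), with knockout minus control on the left and D489V minus control on the right, coloured by class. In D489V the 8 genes with an unadjusted p under 0.05 lie left of 0 at -0.61 to -0.29, and in knockout Col28a1 lies farthest from 0 at -1.72.

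Knockout and D489V samples were also set against each other directly. Of 42 collagen genes, 3 passed (7.14%), against 20.8% (3181 genes) of 15299 genes tested. All 3 fell in knockout relative to D489V, as did 10.3% of all genes: Col27a1, Col20a1 and Col28a1. At an unadjusted p under 0.05 there were 5 collagen genes (11.9%), against 37.7% of all genes. Groups did not overlap for Col27a1 and Col20a1, 4.76% of the collagen genes tested against 13.9% of all genes. Without knockout 3, 6 collagen genes passed, against 15% of all genes, with Col1a2, Col3a1 and Col22a1 added and all of these higher in knockout. The 3 genes that fell passed with and without that library. Of 42 tested marker genes of 11 cell types, 11 passed, all lower in knockout: 4 of 4 endothelial, 2 of 2 Schwann cell, 3 of 4 adipocyte and 2 of 5 mural genes. Without knockout 3, Pmp22 of the Schwann cell list no longer passed and the others did. Adipocyte markers summed to 1672 to 3466 in knockouts. The part of these cells in the collagen differences was not tested.

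The 250 bases before the RefSeq start sites of Col3a1, Col27a1 and Col28a1 are printed to set the abundant type III gene, with its spread within groups, beside 2 of the genes that fell in knockout relative to D489V. They come from RefSeq windows on GRCm38.p6 and run 5′ to 3′ on each gene's strand, at chr1:45311288-45311537, plus strand, chr4:63215162-63215411, plus strand and chr6:8192618-8192867, minus strand. The Col27a1 window lies inside the gene as annotated in GENCODE M21, which starts upstream at 63214004. The start sites of the 2 annotations thus differ for Col27a1. Capitals mark matches to the motifs named after them.
Col3a1: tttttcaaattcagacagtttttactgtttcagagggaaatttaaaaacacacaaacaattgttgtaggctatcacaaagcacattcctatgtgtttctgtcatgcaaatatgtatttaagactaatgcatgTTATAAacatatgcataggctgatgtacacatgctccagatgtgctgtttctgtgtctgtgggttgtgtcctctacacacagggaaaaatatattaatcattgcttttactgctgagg
Col27a1: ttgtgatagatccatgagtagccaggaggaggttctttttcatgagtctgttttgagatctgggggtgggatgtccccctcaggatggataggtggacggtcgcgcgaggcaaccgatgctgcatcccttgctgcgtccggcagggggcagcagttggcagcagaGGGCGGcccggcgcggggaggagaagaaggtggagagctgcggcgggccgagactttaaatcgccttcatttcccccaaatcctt
Col28a1: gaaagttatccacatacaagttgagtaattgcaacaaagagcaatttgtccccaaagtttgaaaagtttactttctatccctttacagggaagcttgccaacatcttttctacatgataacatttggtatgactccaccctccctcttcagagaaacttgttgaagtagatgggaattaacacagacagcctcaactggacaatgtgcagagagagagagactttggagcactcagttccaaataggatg

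The motifs searched on both strands were the TATA box (letters TATAA), the box CCAAT and the GC box (letters GGGCGG). Col3a1 had 2 overlapping matches to TATAA on opposite strands, starting 118 bases before the start site. Col27a1 had 1 GC box, 85 bases before its RefSeq start site, and the Col28a1 window held none of the 3 motifs. Windows were found for 35 of the 44 collagen genes, 38 windows in all. A GC box was in 57.9% of these and in 32.7% of all 32851 windows, a CCAAT box in 34.2% and 33.8%, and a TATAA match in 18.4% and 22.8%. A match describes the letters and is no evidence of binding.

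Type I collagen, the chief tensile fibre of muscle connective tissue and tendon, is built from the α1 chain of Col1a1 (chr11:94936224-94953042, plus strand) and the α2 chain of Col1a2 (chr6:4504814-4541544, plus strand). Col1a1 had normalized counts of 60286, 48335, 59081, 72722 and 56952 in controls 1 to 5, 88555, 74139, 15696, 49854 and 49833 in knockouts 1 to 5 and 26522, 34431, 46661, 48932 and 41504 in D489V samples 1 to 5. Knockouts 1 and 2 lay above every control and knockout 3 below every other sample, while among D489V samples D489V 4 alone lay above the lowest control. The log2 difference from control was -0.30 (SE 0.381, limma adjusted p 0.706) in knockout and -0.61 (SE 0.179, limma adjusted p 0.279) in D489V. Col1a2 had 51080, 41129, 61456, 68188 and 52074 in controls 1 to 5, 85305, 77841, 16643, 45897 and 54315 in knockouts 1 to 5 and 23354, 32050, 40650, 49150 and 39997 in D489V samples 1 to 5. Its order over the samples was close to that of Col1a1, with the same samples at both ends. The log2 difference was -0.15 (SE 0.376, limma adjusted p 0.858) in knockout and -0.59 (SE 0.204, limma adjusted p 0.378) in D489V. Without knockout 3 the knockout differences changed sign, to 0.11 for Col1a1 and 0.24 for Col1a2. In knockout against D489V the same omission brought Col1a2 to 0.83 (limma adjusted p 0.0402) and Col1a1 to 0.72 (limma adjusted p 0.0533).

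**Figure D3:**
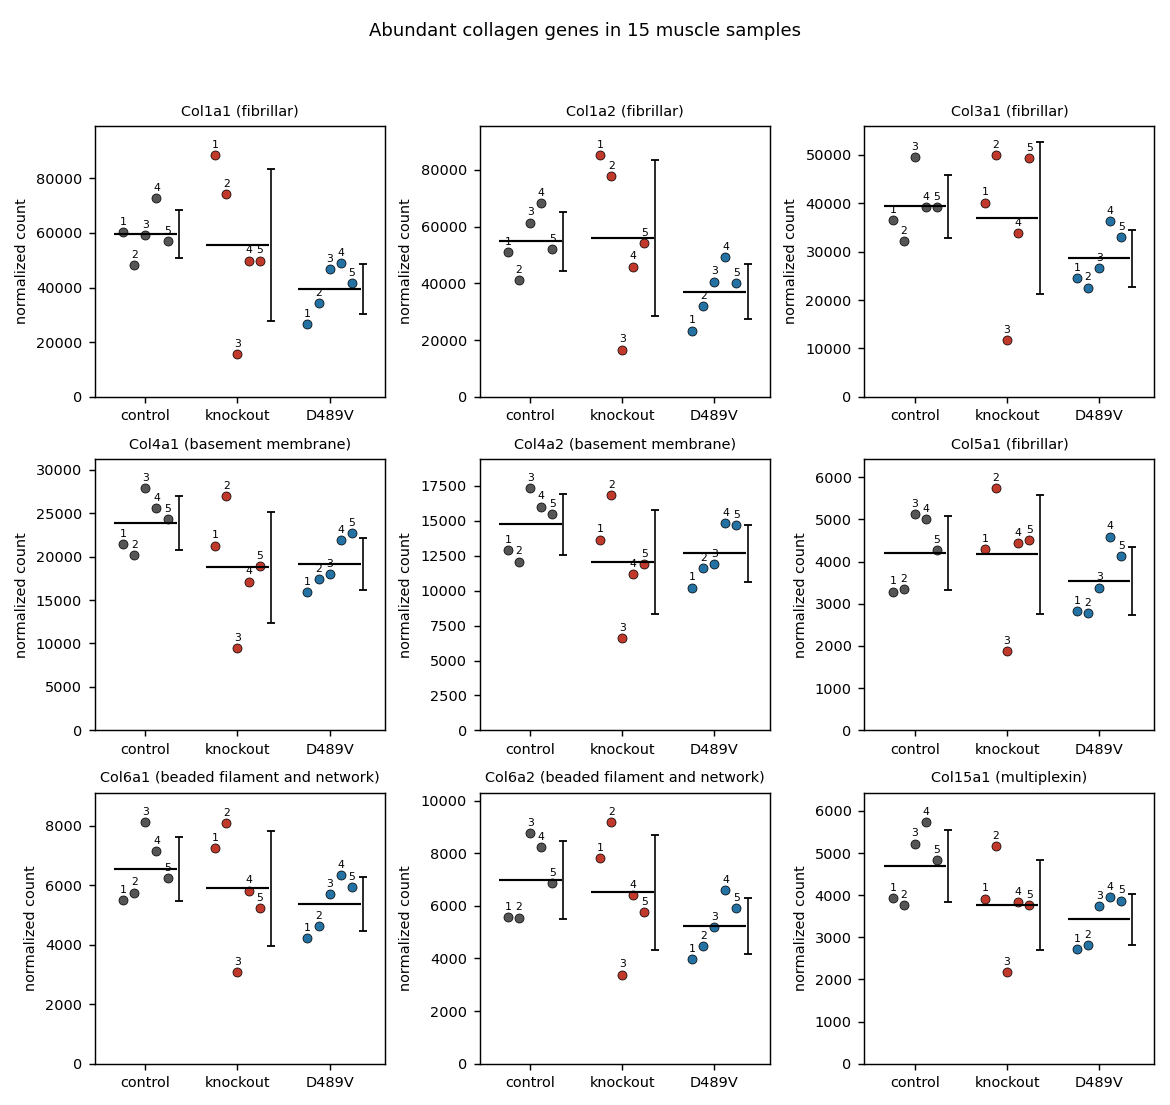
Normalized counts (y axis, from 0) of 9 abundant collagen genes in the control, knockout and D489V samples; each point is a sample with its replicate number, the line is the group mean and the bar is ± 1 SD (n = 5). Knockout 3 is the lowest point of all 15 samples in each panel, and the D489V means lie below the control means in each.

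Type III collagen, the thinner fibre of interstitial tissue, is made from Col3a1 alone (chr1:45311538-45349706, plus strand). Col3a1 had 36462, 32106, 49580, 39165 and 39220 in controls 1 to 5, 40126, 49957, 11719, 33743 and 49312 in knockouts 1 to 5 and 24454, 22544, 26644, 36318 and 32916 in D489V samples 1 to 5. Knockout 3 lay far below the other knockouts, at 33743 or more, and 3 D489V samples lay below every control. The log2 difference was -0.24 (SE 0.343, limma adjusted p 0.738) in knockout and -0.47 (SE 0.16, limma adjusted p 0.365) in D489V, and without knockout 3 the former was 0.14. Against D489V, knockout was higher by 0.60 without knockout 3 (limma adjusted p 0.0396), and by 0.23 with it (limma adjusted p 0.65).

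Type V collagen starts type I fibrils and limits their width. Col5a1 had 3290, 3354, 5127, 5018 and 4280 in controls 1 to 5, 4301, 5738, 1884, 4447 and 4502 in knockouts 1 to 5 and 2829, 2777, 3384, 4592 and 4131 in D489V samples 1 to 5. Col5a2, which lies on chromosome 1 tail to tail with Col3a1 at a distance of 24614 bp, had 2645, 2578, 4268, 3439 and 3310 in controls 1 to 5, 3416, 4798, 1386, 2753 and 3839 in knockouts 1 to 5 and 2262, 2033, 2625, 3740 and 3555 in D489V samples 1 to 5. For both genes knockout 2 was the highest of the 15 samples and knockout 3 the lowest. In D489V the log2 differences were -0.25 (SE 0.176, limma adjusted p 0.687) for Col5a1 and -0.21 (SE 0.192, limma adjusted p 0.772) for Col5a2. In knockout they were -0.08 and -0.09 with all libraries, and 0.19 and 0.18 without knockout 3. The remaining type V chain, Col5a3, had a D489V mean above the control mean, with 5572 ± 550 in controls, 4753 ± 1658 in knockouts and 5913 ± 970 in D489V samples (SD, n = 5 each).

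Type XI chains form fibril cores with type II collagen in cartilage and occur with type V elsewhere. Col11a1 averaged 766 ± 150 in controls, 813 ± 402 in knockouts and 558 ± 189 in D489V samples (SD, n = 5 each), and Col11a2 2366 ± 269 in controls, 2081 ± 825 in knockouts and 1980 ± 565 in D489V samples (SD, n = 5 each). Neither passed in any comparison, and the lowest unadjusted limma p was 0.0543, for Col11a1 in D489V (log2 difference -0.51). Col24a1, a minor fibrillar collagen, averaged 414 ± 74.4 in controls, 405 ± 99.5 in knockouts and 328 ± 105 in D489V samples (SD, n = 5 each).

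Col27a1 (chr4:63214004-63334991, plus strand) is a fibrillar collagen best known from cartilage. It had 528, 379, 348, 198 and 225 in controls 1 to 5, 214, 339, 227, 239 and 230 in knockouts 1 to 5 and 605, 413, 450, 356 and 447 in D489V samples 1 to 5. Every D489V sample, at 356 or more, lay above every knockout sample, at 339 or fewer, while the controls spanned both groups. Relative to D489V, Col27a1 fell in knockout by 0.86 on the log2 scale (SE 0.159, limma adjusted p 0.00613). Against control the log2 difference was -0.35 (SE 0.248, limma adjusted p 0.475) in knockout and 0.50 (SE 0.247, limma adjusted p 0.566) in D489V, on opposite sides of 0 and neither passing.

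Basement membranes around muscle fibres and capillaries are built on nets of type IV collagen, whose common form holds the chains of Col4a1 (chr8:11198423-11312826, minus strand) and Col4a2 (chr8:11312805-11449287, plus strand). Col4a1 had 21417, 20164, 27859, 25576 and 24295 in controls 1 to 5, 21266, 27006, 9454, 17120 and 18916 in knockouts 1 to 5 and 15883, 17397, 18005, 21923 and 22666 in D489V samples 1 to 5. Col4a2 had 12916, 12077, 17329, 16024 and 15466 in controls 1 to 5, 13652, 16835, 6630, 11208 and 11902 in knockouts 1 to 5 and 10227, 11632, 11915, 14865 and 14704 in D489V samples 1 to 5. In both genes knockout 3 was lowest and control 3 highest, and the controls and the mutant groups overlapped. In knockout the log2 difference was -0.42 (SE 0.234, limma adjusted p 0.389) for Col4a1 and -0.34 (SE 0.214, limma adjusted p 0.428) for Col4a2. In D489V it was -0.32 (SE 0.132, limma adjusted p 0.477) and -0.22 (SE 0.138, limma adjusted p 0.652). The knockout differences shrank to -0.19 for Col4a1 and -0.14 for Col4a2 without knockout 3. Markers of endothelial cells, which also make these chains, were Pecam1, Cdh5, Kdr and Tek, all detected in every sample. They summed to 10785 to 15027 in controls, 6509 to 10095 in knockouts and 11886 to 13691 in D489V samples. Against control, 4 of 4 had a log2 difference below 0 in knockout, with a median of -0.58, and of -0.53 without knockout 3. None passed with limma there. An unadjusted p under 0.05 was found for 4, and groups without overlap for 3, beside 15.1% and 2.24% of all genes. In D489V, 3 were above 0 and 1 below, with a median of 0.02. Mural cell markers (Rgs5, Acta2, Myh11, Cspg4 and Notch3) summed to 17456 to 22502 in controls, 14381 to 17299 in knockouts and 17724 to 23861 in D489V samples. In knockout 5 of 5 were below 0, with a median of -0.31, and of -0.24 without knockout 3. In D489V 5 of 5 were above 0, with a median of 0.06. None passed with limma, and 4 in knockout and 1 in D489V had an unadjusted p under 0.05, beside 15.1% and 9.43% of all genes. The part of endothelial and mural cells in the Col4a1 and Col4a2 values was not tested.

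The remaining type IV chains, known from specialised basement membranes such as that of the kidney filter, were scarce in muscle. Col4a5 averaged 318 ± 46.8 in controls, 280 ± 75.9 in knockouts and 334 ± 52.6 in D489V samples (SD, n = 5 each). Col4a3 and Col4a4 ranged over 48 to 104 and 52 to 162 normalized counts. Col4a6 had 9 to 32, with its highest values in D489V 4 and 5. It had a log2 difference of -0.74 (SE 0.291, limma adjusted p 0.0866) in knockout against D489V. Over the 6 type IV genes the median log2 difference was -0.24 in knockout and 0.01 in D489V, where Col4a1, Col4a2 and Col4a4 were below 0 and Col4a3, Col4a5 and Col4a6 above it.

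The type IV genes lie head to head in pairs, Col4a4 and Col4a3 with 71 bp between them, Col4a6 and Col4a5 with 1308 bp, and Col4a1 and Col4a2 with an overlap of 22 bp of their annotated first exons. The stretch that holds the start sites of the last pair is shown because both genes are read outward from it and their counts moved together over the samples. It runs on the plus strand of GRCm38.p6 at chr8:11312801-11312830 in RefSeq's promoter windows, and the capitals mark the 22 bases from the Col4a2 start site to the Col4a1 start site, both included.
Col4a1 and Col4a2 start sites: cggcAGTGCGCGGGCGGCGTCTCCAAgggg

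In 3 pairs of chains that are assembled into the same molecule, levels rose and fell together. No pair from different molecules was set beside them, and many collagens shared their lowest sample, knockout 3 (23 of 42). The ratios per kb ran from 0.940 to 1.21 for Col1a2/Col1a1, 0.614 to 0.719 for Col4a2/Col4a1 and 0.945 to 1.19 for Col6a2/Col6a1. Over the 15 samples, log2 values of Col1a1 and Col1a2 had a Pearson r of 0.982 and a Spearman rho of 0.957, those of Col4a1 and Col4a2 0.991 and 0.989, and those of Col6a1 and Col6a2 0.971 and 0.954. The permutation p was 1e-05 for each, raw and adjusted over the 3 pairs, which is the smallest that 100000 resamples can give. Without the 2 samples farthest from the median, r was 0.960, 0.974 and 0.970. The samples share the library and its scaling within each pair of values.

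Within each sample, the ratio of Col4a2 to Col4a1 per kb was 0.633 ± 0.0164 in controls and 0.677 ± 0.0144 in D489V (SD, n = 5 each). The controls lay at 0.614 to 0.653 and the D489V samples at 0.660 to 0.695, with no overlap. The exact two-sided permutation p was 0.00794, the smallest that 5 against 5 samples allow, and 0.0714 after adjustment over 18 tests of 6 ratios in 3 comparisons. The ratio of Col6a2 to Col6a1 was 1.14 ± 0.0231 in knockout and 1.01 ± 0.0518 in D489V (SD, n = 5 each), again with no overlap, an exact permutation p of 0.00794 and an adjusted p of 0.0714. Col1a2 to Col1a1 was 1.02 ± 0.0874 in controls, 1.13 ± 0.0793 in knockouts and 1.03 ± 0.0622 in D489V samples (SD, n = 5 each). None of the 18 tests passed the adjustment. With groups of 5, a ratio without overlap could pass only if more of the 18 had similarly small p-values. Failing it therefore does not show that the ratios were equal. The ratio of Col3a1 to Col1a1, which belong to different molecules, ran from 0.574 to 0.894 in controls and from 0.483 to 1.05 in knockouts.

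**Figure D4:**
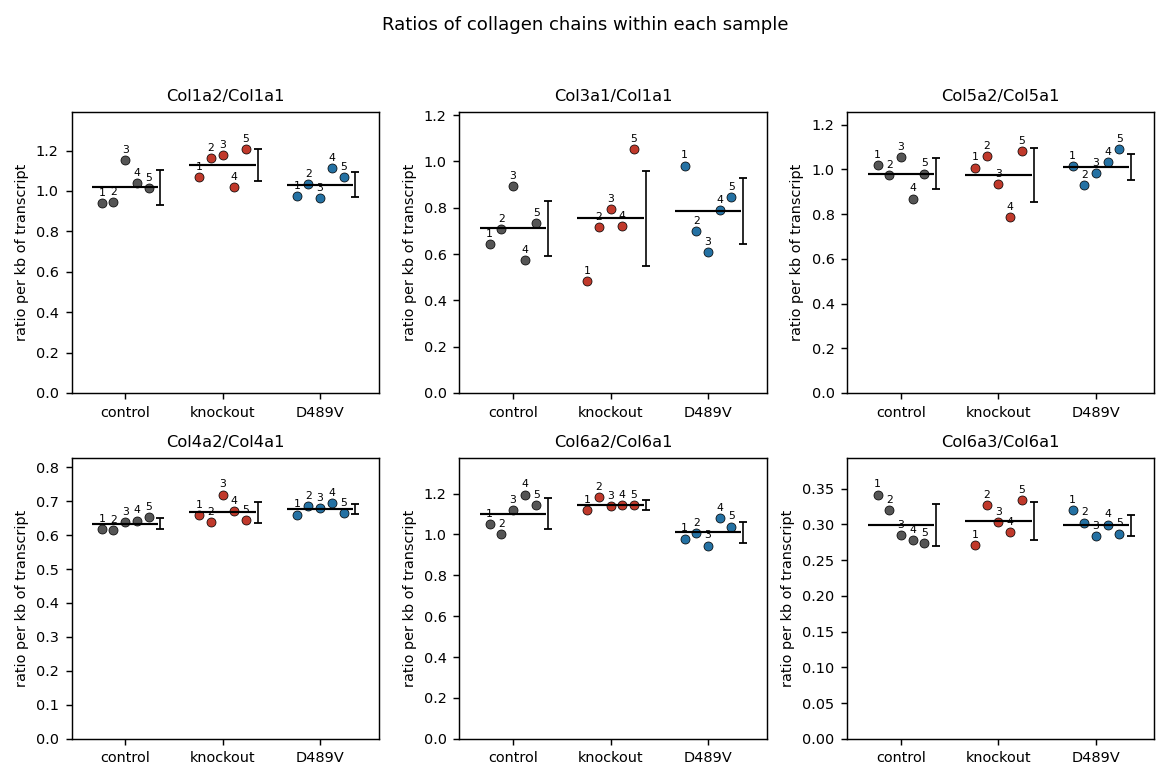
Ratio of counts per kb of transcript (y axis, from 0) for 6 pairs of collagen chains within each sample, by group; points are samples with their replicate numbers, lines are group means and bars ± 1 SD (n = 5). Col4a2/Col4a1 is 0.660 to 0.695 in D489V against 0.614 to 0.653 in controls, and Col3a1/Col1a1 is the most spread within groups.

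Type VI collagen forms beaded filaments that link basement membranes to the interstitium, and its genes are mutated in Bethlem and Ullrich muscle disease. Col6a1 had 5497, 5754, 8130, 7143 and 6238 in controls 1 to 5, 7247, 8078, 3089, 5822 and 5223 in knockouts 1 to 5 and 4228, 4613, 5711, 6339 and 5923 in D489V samples 1 to 5. Col6a2 had 5564, 5555, 8752, 8219 and 6875 in controls 1 to 5, 7800, 9191, 3384, 6404 and 5758 in knockouts 1 to 5 and 3989, 4473, 5197, 6586 and 5926 in D489V samples 1 to 5. Col6a3 had 4629, 4532, 5715, 4902 and 4215 in controls 1 to 5, 4838, 6521, 2308, 4148 and 4293 in knockouts 1 to 5 and 3333, 3440, 3991, 4684 and 4192 in D489V samples 1 to 5. Knockout 3 was the lowest sample for all 3 genes, and knockout 2 or control 3 the highest. In D489V the log2 differences were -0.29 (SE 0.141, limma adjusted p 0.563), -0.42 (SE 0.169, limma adjusted p 0.466) and -0.29 (SE 0.115, limma adjusted p 0.45), in the same order of genes. In knockout they were -0.21, -0.15 and -0.19, and without knockout 3 they were 0.00, 0.06 and 0.03. Alternative chains that can take the place of Col6a3 were scarcer: Col6a6 had 175 to 724 and Col6a5 5 to 57 normalized counts over the series. Type VIII network chains, known from vessel walls and the cornea, ranged over 135 to 378 for Col8a1 and 80 to 311 for Col8a2, and neither passed in any comparison.

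Col28a1 (chr6:7997808-8192617, minus strand) encodes a type VI-like collagen known from peripheral nerve, where it lies around glial cells. It had 117, 123, 155, 202 and 113 in controls 1 to 5, 79, 22, 27, 65 and 39 in knockouts 1 to 5 and 118, 104, 183, 70 and 131 in D489V samples 1 to 5. Every knockout lay below every control, the highest knockout at 79 and the lowest control at 113, whereas D489V samples overlapped both groups. In knockout against control the log2 difference was -1.72 (SE 0.337, limma adjusted p 0.2), which ranked 21 of all genes by p and did not pass. It kept a log2 difference of -1.95 to -1.50 when single libraries were left out. In knockout relative to D489V it fell by 1.46 on the log2 scale (SE 0.355, limma adjusted p 0.0167). Markers of Schwann cells, the glia of nerve (Sox10 and Pmp22), summed to 2390 to 3351 in controls, 1630 to 2524 in knockouts and 2936 to 10277 in D489V samples. Both were detected in every sample. Against control the log2 difference was below 0 for both in knockout, with a median of -0.43. It was above 0 for both in D489V, with a median of 0.59. Neither gene passed with limma against control. In D489V 3, where Col28a1 was 183, the sum of 10277 was mostly Pmp22, at 9796. Among the knockouts, knockout 3 had the highest Sox10, at 150, but the lowest Pmp22, at 1480, with Col28a1 at 27. Knockout 2 had the lowest Sox10 of the 15 samples, at 83, and also the lowest Col28a1, at 22. Knockout 1 had the highest Col28a1 of the knockouts, at 79, with Sox10 at 92. The part of Schwann cells in the Col28a1 values was not tested.

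**Figure D5:**
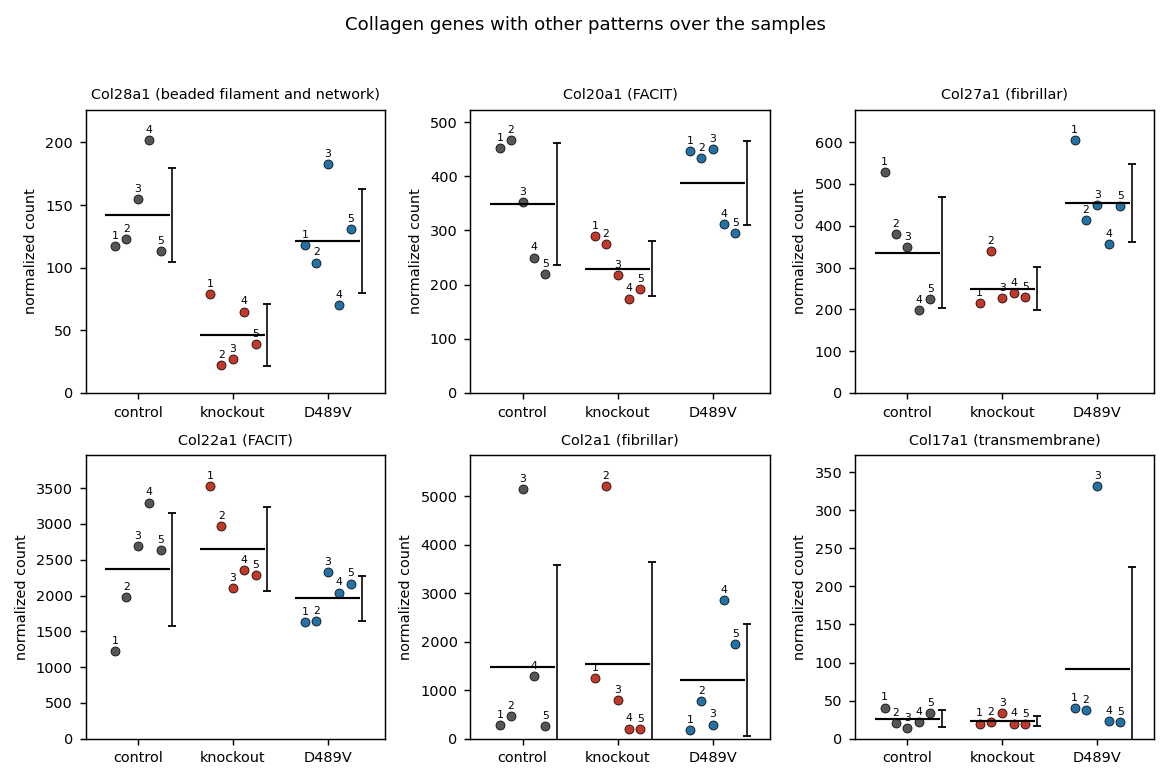
Normalized counts (y axis, from 0) of 6 collagen genes, Col28a1, Col20a1, Col27a1, Col22a1, Col2a1 and Col17a1. Points are samples with replicate numbers, lines are group means and bars ± 1 SD (n = 5), which stop at 0. The knockouts of Col22a1 are ordered as those of Col1a1. Col28a1 knockouts lie below all controls, Col27a1 and Col20a1 knockouts lie below all D489V samples, and Col2a1 and Col17a1 are set by a few high samples.

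FACIT collagens sit on fibril surfaces and link them to other matrix. Col20a1 (chr2:180986535-181018363, plus strand) had 452, 467, 353, 250 and 220 in controls 1 to 5, 290, 275, 218, 174 and 191 in knockouts 1 to 5 and 447, 433, 450, 312 and 295 in D489V samples 1 to 5. Every knockout, at 290 or fewer, lay below every D489V sample, at 295 or more, so the groups were separated by 5 counts. Relative to D489V it fell in knockout by 0.76 on the log2 scale (SE 0.178, limma adjusted p 0.0151). Against control the log2 difference was -0.56 (SE 0.232, limma adjusted p 0.312) in knockout and 0.19 (SE 0.225, limma adjusted p 0.828) in D489V, and controls overlapped both. Schwann cell markers were lower in knockouts than in D489V samples as given for Col28a1, and their part in the Col20a1 and Col27a1 values was not tested either.

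Col22a1, the FACIT of tissue junctions such as that between muscle fibre and tendon, had 1229, 1977, 2686, 3296 and 2638 in controls 1 to 5, 3532, 2970, 2101, 2359 and 2282 in knockouts 1 to 5 and 1630, 1645, 2330, 2040 and 2166 in D489V samples 1 to 5. Control 1 was the lowest sample and knockout 1 the highest, and all groups overlapped. In knockout against D489V the log2 difference was 0.42 (SE 0.152, limma adjusted p 0.067), and without knockout 3 it was 0.50 (limma adjusted p 0.0499). Col12a1, found on the fibrils of tendon and fascia, had 583, 634, 1103, 800 and 573 in controls 1 to 5, 1193, 1143, 338, 520 and 624 in knockouts 1 to 5 and 337, 535, 575, 854 and 708 in D489V samples 1 to 5. Knockouts 1 and 2 and control 3 were the highest, and D489V 1 and knockout 3 the lowest. Col14a1, a related fibril surface collagen, had 715, 664, 1029, 754 and 840 in controls 1 to 5, 542, 1026, 259, 712 and 727 in knockouts 1 to 5 and 439, 521, 685, 835 and 682 in D489V samples 1 to 5. Control 3 and knockout 2 led there, and knockout 3 had the lowest value. The log2 difference was -0.06 in knockout and -0.31 in D489V for Col12a1, and -0.41 and -0.36 for Col14a1, with limma adjusted p from 0.493 to 0.934. Leaving out knockout 3 brought the knockout differences to 0.19 for Col12a1 and -0.11 for Col14a1. Col16a1 averaged 1313 ± 86.8 in controls, 1264 ± 490 in knockouts and 1138 ± 242 in D489V samples (SD, n = 5 each).

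Multiplexins lie in the basement membrane zone of vessels and muscle fibres. Col15a1 had 3922, 3758, 5225, 5741 and 4841 in controls 1 to 5, 3919, 5161, 2166, 3838 and 3760 in knockouts 1 to 5 and 2725, 2820, 3749, 3954 and 3869 in D489V samples 1 to 5. D489V 1 to 3 lay below every control, D489V 4 and 5 among the lowest controls, and knockout 3 was lowest. Against control, the log2 difference was -0.46 (SE 0.151, limma adjusted p 0.353) in D489V and -0.35 (SE 0.205, limma adjusted p 0.404) in knockout. The latter was -0.17 without knockout 3. Col18a1, the source of endostatin, had 1067, 933, 1245, 1061 and 1040 in controls 1 to 5, 1151, 1215, 540, 947 and 932 in knockouts 1 to 5 and 872, 865, 1054, 1051 and 1091 in D489V samples 1 to 5. Apart from knockout 3, its samples lay between 865 and 1245, and its log2 difference was -0.21 in knockout and -0.12 in D489V. Leaving out knockout 3 brought the knockout difference to -0.014.

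Among the transmembrane types, Col13a1, which muscle fibres use at the neuromuscular junction, had 126, 134, 126, 127 and 111 in controls 1 to 5, 128, 127, 69, 95 and 118 in knockouts 1 to 5 and 73, 94, 134, 99 and 64 in D489V samples 1 to 5. The controls were tight, at 111 to 134, whereas D489V samples spread from 64 to 134, of which D489V 1, 2, 4 and 5 lay below every control. The log2 difference was -0.47 (SE 0.187, limma adjusted p 0.455) in D489V and -0.25 (SE 0.179, limma adjusted p 0.492) in knockout. Col25a1, known for its need in motor innervation of muscle, had 4 to 15 normalized counts and was tested in the comparisons with D489V alone. Col23a1 had 99 to 300 and averaged 136 ± 34.1 in controls, 127 ± 30.1 in knockouts and 170 ± 74.5 in D489V samples (SD, n = 5 each).

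Some collagens were high in the samples where markers of tissues other than muscle were high, and these genes were picked out after their values were seen. Col2a1, the fibrillar collagen of cartilage, had 283, 467, 5143, 1285 and 256 in controls 1 to 5, 1251, 5217, 792, 208 and 193 in knockouts 1 to 5 and 178, 778, 292, 2857 and 1946 in D489V samples 1 to 5. Control 3, knockout 2 and D489V 4 and 5 stood high, in all 3 groups. The cartilage proteoglycan gene Acan was highest in the same samples, at 105, 128, 89 and 45, against 33 or fewer in the others. Sox9 and Matn3 of the cartilage list and Alpl and Dmp1 of the bone list were not highest in these samples. The bone gene Ibsp was at 87, 78, 134 and 114 there, against 26 or fewer, while the cartilage gene Matn1 was at 0 to 3 in all. Col9a3, a cartilage FACIT chain, had 122 and 123 in control 3 and knockout 2 and 86 or fewer elsewhere. Col17a1, of the hemidesmosomes of skin, had 332 in D489V 3 and 14 to 41 in the other samples. Skin keratin genes stood beside it in D489V 3, with Krt5 at 1439 and Krt14 at 961, against at most 54 and 14 elsewhere. Lymph node markers (Ms4a1, Cd3e and Glycam1) summed to 737, 1155 and 391 in knockouts 3 to 5 and 1130 in control 5, against 56 or fewer in the other 11 samples. Col6a4, too low to be tested, had 25, 42 and 15 in knockouts 3 to 5 and 56 in control 5, against 6 or fewer in the other 11. The part of such tissue in these values, or in the spread among knockouts, was not tested.

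Col7a1, the anchoring fibril collagen of skin, had 1313 to 1659 in knockouts, 1096 to 2071 in controls and 1229 to 3639 in D489V samples. Its 2 highest samples were D489V 1 and D489V 3, and the log2 difference from control was 0.41 (SE 0.265, limma adjusted p 0.663) in D489V. Col26a1 averaged 265 ± 60.2 in controls, 214 ± 108 in knockouts and 214 ± 57 in D489V samples (SD, n = 5 each). The scarce FACIT genes Col9a1, Col9a2 and Col19a1 had means of 15.8 to 76.2 in every group, and none passed in any comparison.

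Knockout 3 held less of most collagens than the other knockouts. It lay below their mean in 37 of 42 genes, with a median log2 difference of -0.98, and the median over all genes was 0.01. Fibrillar genes lay lowest, with a median of -1.39, then type IV with -0.90 and other types with -0.75. Col1a1 was at 15696, against a mean of 65595 in the other 4 knockouts, a 4.18-fold gap. Col27a1 and Col20a1 differed little there, by -0.15 and -0.06. Knockout 3 was the lowest of the 15 samples for 54.8% of the 42 collagen genes, against 11.1% of all genes, and for 47 of 70 genes of collagen handling. Tendon markers (Scx, Mkx, Tnmd, Kera, Fmod and Thbs4) summed to 6991 in knockout 3, against 10503 to 25198 in the other samples. Those of fibro-adipogenic cells summed to 18377, against 23260 to 32935. Knockout 2 stood at the other end, highest of the 15 in 17 of 42 collagen genes (40.5%), against 3.81% of all genes. Its tendon sum was 21415, below the 25198 of knockout 1. The part of these cell types in the collagen values was not tested.

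Genes that fold, process, degrade or bind collagen were taken as a list of 71 in 6 roles, of which 70 were tested. In knockout against control 0 passed with limma, and 14 had an unadjusted p under 0.05 (2 higher and 12 lower). That p was reached by 15.1% of all genes, and by 7.42% with lower values. The log2 difference was above 0 for 17 and below 0 for 53, beside 48.5% of all genes below 0. Without knockout 3 the count was 32 above and 38 below, beside 47.9%. In D489V against control 0 passed with limma, and 3 had an unadjusted p under 0.05 (1 higher and 2 lower), beside 9.43% of all genes. There 26 were above 0 and 44 below, beside 49.6% of all genes below 0. Fibril-bound proteoglycans and glycoproteins, such as Dcn and Fmod, were below 0 in knockout for 13 of 13 genes with a median of -0.17, but for 6 of 13 with a median of 0.01 without knockout 3. In D489V they were below 0 for 7 of 13, with a median of -0.07. Basement membrane partners of type IV collagen were below 0 for 10 of 11 in knockout, with a median of -0.30, and for 8 of 11 with a median of -0.14 without knockout 3. Among these Pxdn, the enzyme that links type IV molecules through sulfilimine bonds, had 2428, 2276, 2284, 2080 and 2092 in controls 1 to 5, 1556, 2071, 864, 1088 and 1176 in knockouts 1 to 5 and 1895, 2030, 1906, 2141 and 2017 in D489V samples 1 to 5. All knockouts lay below all controls, with a log2 difference of -0.79 (SE 0.194, limma adjusted p 0.243). Timp4, an inhibitor of collagen-cutting metalloproteinases, had 652, 483, 699, 442 and 387 in controls 1 to 5, 1530, 862, 709, 1126 and 1230 in knockouts 1 to 5 and 1362, 927, 1079, 745 and 1047 in D489V samples 1 to 5. Both mutant groups lay above all controls, with log2 differences of 1.02 (SE 0.22, limma adjusted p 0.227) in knockout and 0.96 (SE 0.191, limma adjusted p 0.0845) in D489V. With P4ha2, at 0.25, these were the 3 of 70 genes whose groups did not overlap in knockout, against 2.24% of all genes, and they were chosen for this after their values were seen.

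In knockout against D489V, 10 of the 70 handling genes passed (4 higher and 6 lower in knockout), beside the background of 20.8% given above. Without knockout 3, 5 of them passed, beside 15% of all genes: P4ha1, P4ha2, Agrn, Itga11 and Itgb1. Of the prolyl hydroxylase genes, whose enzymes stabilise the collagen helix, P4ha1 and P4ha2 passed and were higher in knockout, while P4ha3, P3h1, P3h2, P3h3 and P3h4 did not pass: P4ha1 was higher by 0.42 and P4ha2 by 0.38 (limma adjusted p 0.0124 and 0.0149). Ppib, a folding catalyst of procollagen, fell by 0.41 (limma adjusted p 0.0386). Among basement membrane partners, the laminin chain gene Lama5, the proteoglycan gene Agrn and Pxdn fell by 0.46, 0.53 and 0.63 (limma adjusted p 0.0323, 0.0181 and 0.0351). Of the collagen receptors, the integrin chain genes Itga1 and Itga11 fell by 0.51 and 0.75, and Itgb1, their shared partner, was higher by 0.45 (limma adjusted p 0.0357, 0.0129 and 0.0299). For Itga11, the receptor chain for fibrillar collagen, every knockout, at 118 to 205, lay below every D489V sample, at 226 to 309. No gene of propeptide processing and cross-linking, of collagen breakdown or of the fibril-bound group passed there.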

How the data were processed

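Muscle RNA of 5 control, 5 knockout and 5 D489V mice was analysed from 2 deposited tables, and groups and replicate numbers came from the labels. The authors deposited whole numbers under the name of normalized counts, which are treated here as a score without unit. Trim Galore 0.6.0, cutadapt, FastQC, STAR 2.7.0e, DESeq2 1.26.0 and the build GRCm38 are listed, per the submitters' processing notes, without their settings. The counting tool is not given in the sources used here. The plan had assumed normalized counts, and the tests fit the unit found.

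The control columns were identical in both tables. Median ratios to the geometric mean of all samples were 1.0069 to 1.0097, so knockout and D489V samples were compared directly. Collagen genes were found by name, and all 55536 identifiers matched GENCODE M21, which gave positions and the length of the transcript with the longest coding sequence. Each comparison was fitted across all genes by limma 3.58.1 (R 4.3.3) with a variance trend and two-sided tests, using log2(value + 1) of genes at 10 or more in at least 5 of 10 samples. Genes passed at a Benjamini-Hochberg adjusted p under 0.05. Differences are on that log2 scale, which understates changes of low genes. The fit was tested on simulated data. Ratios of chains were compared by exact permutation. Where nothing names separate cultures or animals, p-values measure the spread between these samples.

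Col1a1, Col1a2, Col3a1, Col5a1, Col5a2, Col4a1, Col4a2, Col6a1, Col6a2, Col6a3, Col15a1, Col18a1, Col12a1, Col14a1, Col22a1 and Col13a1 were named with values in every sample, with any collagen gene that passed or whose groups did not overlap against control at a mean of 50 or more. Of those that passed in knockout against D489V, the 5 greatest rises and 5 greatest falls were named, and of the collagen-handling genes at most 3 per role. The members, classes and lists were chosen with earlier results of these data known. Counts of these lists without knockout 3, and the fibro-adipogenic sum without Gsn, were added after seeing the data. From the list of cell type markers, 3 genes are not reported here. Python 3.11.15, numpy 2.4.6, pandas 2.3.3, scipy 1.17.1 and matplotlib 3.10.9 were used for the rest.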

Additional observations from a re-analysis of the deposited data

Results flagged for a closer look

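Single samples stood far from the rest of their group of 5 in 8 of 126 gene and group combinations, where chance gives about 1 in 20, or 6.3. Of these, 3 were in knockout 3: Col3a1 at 11719, below the other knockouts, Col5a1 at 1884, below the others, and Col17a1 at 34, above the others. In D489V samples, Col17a1 was at 332 in D489V 3, where the others had 40 or fewer. Knockout 2 had the highest Col27a1 of its group, at 339, and the lowest Col7a1, at 1313. In controls, Col9a3 was at 122 in control 3, and Col6a5 was at 15 in control 4, below the other controls.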

How the results depend on the processing

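The unit limits all of these values: rounding and unknown read totals leave no counting error to state, and a group of 5 can give an exact p no lower than 0.00794. Over 52 single-gene results, 1058 of 1092 recomputed values kept their direction and side of the threshold, 4 came to pass and 30 changed sign, none of them passing. Of 450 values of counts, medians and ratios, 429 were labelled unchanged, by a looser rule for counts and medians. A median was unchanged if it moved by less than the SD between samples, whatever its sign. A count was unchanged if it stayed within a set fold. All 189 medians met that rule, although some changed sign. Counts of 0 against control held under all alternatives run. In knockout against D489V, 3 calls became 6 without knockout 3 and were 3 or 4 otherwise, and Col20a1, Col27a1 and Col28a1 passed under each alternative run. Col22a1 also passed there with array weights, at 0.55 (limma adjusted p 0.0157), and the genes added without knockout 3 were Col1a2, Col3a1 and Col22a1, at 0.83, 0.60 and 0.50. The added gene was Col4a6 with no variance trend, Col9a3 without knockout 2 and Col7a1 without D489V 4, each lower in knockout. In these settings 16.5%, 18.5% and 24.4% of all genes passed.

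The replicate number as a block left 0, 0 and 3 collagen calls in the 3 comparisons. It moved the collagen genes of D489V against control at an unadjusted p under 0.05 from 8 to 14 (33.3%, beside 10.5% of all genes). That number was 13 with array weights (31%, beside 11.6%) and 3 with all 15 samples in one fit (7.14%, beside 9.67%). In knockout against control it was 2 (4.88%, beside 15.1%), but 5 with quantile normalization (12.2%, beside 12.8%). Same-numbered samples deviated together with correlations of -0.23 to 0.252, -0.367 to 0.346 and -0.0976 to 0.104 in the 3 comparisons, and no number marks a shared animal or day.

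None of the differences that changed sign had passed, and the cause was not tested. In knockout against D489V they were Col4a1, Col14a1 and Col18a1 with array weights, at 0.025, 0.14 and 0.039, and Col6a1 and Col15a1 with quantile normalization, at -0.023 and -0.0027. With single libraries left out, the log2 differences that changed sign in knockout against control spanned Col1a1 -0.52 to 0.11, Col1a2 -0.35 to 0.24, Col3a1 -0.39 to 0.14, Col5a1 -0.21 to 0.19, Col5a2 -0.26 to 0.18, Col6a1 -0.34 to 0.0026, Col6a2 -0.30 to 0.062, Col6a3 -0.35 to 0.029, Col12a1 -0.26 to 0.19 and Col22a1 -0.0041 to 0.35. In knockout against D489V they spanned Col4a1 -0.25 to 0.13, Col4a2 -0.26 to 0.078, Col5a2 -0.054 to 0.39, Col6a1 -0.053 to 0.29, Col6a3 -0.053 to 0.32, Col14a1 -0.25 to 0.25, Col15a1 -0.023 to 0.29 and Col18a1 -0.19 to 0.10. Apart from Col22a1 against control, these were highest without knockout 3. Differences of log2 ratios that changed sign spanned Col3a1/Col1a1 -0.074 to 0.21, Col5a2/Col5a1 -0.059 to 0.059 and Col6a3/Col6a1 -0.0084 to 0.074 in knockout against control, Col1a2/Col1a1 -0.0074 to 0.067 and Col6a3/Col6a1 -0.033 to 0.047 in D489V against control, and Col3a1/Col1a1 -0.21 to 0.068, Col5a2/Col5a1 -0.10 to 0.015 and Col6a3/Col6a1 -0.0066 to 0.068 in knockout against D489V. The median over fibrillar genes in knockout against control was -0.15, and 0.11 without knockout 3. With single libraries left out, the median in knockout against D489V spanned -0.32 to 0.036 over type IV genes and -0.19 to 0.25 over other types. Over type IV genes in D489V against control it spanned -0.063 to 0.079.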
